A study of Mus musculus with 6 samples.

Results

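Mbl2 and the Reg genes encode secreted proteins that bind carbohydrates, and 6 of them, Mbl2, Reg1, Reg3a, Reg3b, Reg3g and Reg4, were followed here in the jejunum of irradiated mice. They were read by every probe that the platform annotation maps to these symbols, 7 probes of 45281 in all, of which Reg3b had 2 and each other gene 1. The 6 genes, of 19057 with a named probe, were chosen by their NeuroD-EGFP minus EGFP differences in these same mice, so the differences between the groups given for them are descriptions and carry no test. Male C57BL/6J mice aged 8 weeks received 9 Gy total body irradiation (TBI) and, straight afterwards, an intraperitoneal dose of 100 µl holding 0.1 mM EGFP (3 mice) or NeuroD-EGFP (3 mice). NeuroD-EGFP is the transcription factor NeuroD fused to enhanced green fluorescent protein and was purified from Escherichia coli, and EGFP alone was the control protein. Jejunum RNA taken at 12 h was read on Illumina Mouse WG-6 beadchips, with an array for each mouse. Every mouse on the arrays was irradiated, so the values compare the 2 proteins and not irradiated with unirradiated tissue.

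Mannose-binding lectin recognises sugars on the surface of microbes and, with its associated serine proteases, starts the lectin pathway of complement. In mice its gene Mbl2 is transcribed in liver and in the small intestine. The Reg proteins are small C-type lectin-like proteins of the gut and pancreas. Reg3b and Reg3g are antibacterial proteins of enterocytes and Paneth cells whose genes respond to bacteria and to IL-22 acting through STAT3, Reg1 is made in pancreatic acinar cells and in the small intestine, and Reg4 marks secretory cells of the intestinal epithelium.

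Reg1, Reg3a, Reg3b and Reg3g lie in 1 cluster on chromosome 6, in the order Reg3b, Reg3d, Reg3a, Reg2, Reg1 and Reg3g, with a pseudogene (Gm52853) before the last, whereas Reg4 is on chromosome 3 and Mbl2 on chromosome 19. The 250 bases before the annotated start are shown for Mbl2 and Reg1, the members that varied most between mice, and for Reg3b and Reg3g, whose upstream sequences were the most alike of the 6 genes (68.9% identity over the aligned columns, against 47.9% to 53.3% for the other 14 pairs). The sequences are from RefSeq (GRCm38.p6), at chr19:30232678-30232927 on the + strand for Mbl2, chr6:78425733-78425982 on the + strand for Reg1, chr6:78370635-78370884 on the + strand for Reg3b and chr6:78468875-78469124 on the - strand for Reg3g. Capitals mark the E-box CANNTG, the motif that NeuroD binds, and the STAT-type motif TTCNNNGAA. Each reads the same on both strands, and no match of one overlapped a match of the other.
Mbl2: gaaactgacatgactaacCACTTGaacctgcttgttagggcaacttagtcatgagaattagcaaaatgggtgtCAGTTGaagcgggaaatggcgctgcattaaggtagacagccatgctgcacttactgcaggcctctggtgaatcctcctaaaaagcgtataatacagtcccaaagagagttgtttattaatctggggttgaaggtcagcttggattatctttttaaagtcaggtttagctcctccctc
Reg1: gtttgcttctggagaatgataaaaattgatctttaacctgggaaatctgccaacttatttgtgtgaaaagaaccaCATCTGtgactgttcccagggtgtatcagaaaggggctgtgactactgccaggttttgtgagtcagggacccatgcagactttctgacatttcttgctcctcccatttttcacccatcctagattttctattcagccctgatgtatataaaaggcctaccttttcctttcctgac
Reg3b: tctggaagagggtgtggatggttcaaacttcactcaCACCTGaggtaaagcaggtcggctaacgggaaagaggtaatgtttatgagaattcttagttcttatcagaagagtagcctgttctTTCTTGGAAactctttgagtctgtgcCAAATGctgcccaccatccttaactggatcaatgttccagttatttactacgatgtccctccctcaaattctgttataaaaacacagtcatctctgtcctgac
Reg3g: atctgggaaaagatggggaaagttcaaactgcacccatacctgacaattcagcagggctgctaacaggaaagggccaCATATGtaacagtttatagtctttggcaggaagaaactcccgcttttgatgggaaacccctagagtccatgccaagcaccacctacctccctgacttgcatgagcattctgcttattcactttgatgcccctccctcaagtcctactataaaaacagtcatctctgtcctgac
An E-box was present before all 6 genes, with 2 matches for Mbl2 and for Reg3b and 1 for each of the others. Of 32851 mouse promoters of the same length, 66.2% held at least 1. The motif TTCNNNGAA occurred once, before Reg3b, from 129 to 121 bases upstream of the start, and 7.02% of promoters held it. These are matches of letters in 250 bases and say nothing of binding.

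The arrays had between 18271 and 20408 probes above background at a detection p under 0.05, a 75th percentile of signal between 80.3 and 122, and a highest signal between 23189 and 29649. All values below are log2 of the background-corrected, quantile-normalized intensity unless called signal, and differences are NeuroD-EGFP minus EGFP. Of 19099 probes tested with limma, 0 (0%) passed an adjusted p of 0.05 and 954 (5%) had an unadjusted p under 0.05. With EGFP mouse 3 left out 24 (0.126%) passed. Before the members are described, the labelled tissue was checked against genes of the proximal and distal small intestine, and EGFP mouse 3 stood apart. Its lactase gene Lct, an enzyme of the jejunal brush border, was not above background (4.56), while the other 5 mice lay between 12.14 and 13.26. Gata4, a transcription factor that sets jejunal identity, was likewise not above background there (4.53) and lay between 5.70 and 6.67 in the others. Fabp6, the bile acid binding protein of the ileum, had a signal of 18911 in EGFP mouse 3 and of 36.5 in NeuroD-EGFP mouse 1, and was not above background in the other 4 mice. The genes of both subunits of the basolateral bile acid exporter, Slc51a and Slc51b, were highest in EGFP mouse 3, at 13.71 and 13.05, against 12.08 to 12.31 and 10.73 to 11.59 in the other mice. Pdx1, a transcription factor of the duodenum and pancreas, had signals of 713 and 182 in EGFP mice 1 and 2 and was not above background in the remaining 4 mice. The labels name jejunum for all 6 mice and give no position along it, and differences in position cannot be told apart from the protein given. The member differences and the counts and medians of the pathway lists are therefore also given without EGFP mouse 3, while spreads and marker levels are given mouse by mouse or over all mice.

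Mbl2 signals were 367, 1128 and 33.9 for EGFP mice 1 to 3, against 1743, 2199 and 2244 for NeuroD-EGFP mice 1 to 3. All 6 were above background. On the log2 scale these were 8.30, 10.06 and 5.66 with EGFP and 10.83, 11.25 and 11.39 with NeuroD-EGFP. Every NeuroD-EGFP mouse was above every EGFP mouse, and EGFP mouse 3 was the lowest by a wide gap. The means were 8.01 ± 2.21 (SD, n = 3) and 11.16 ± 0.29 (SD, n = 3), a log2 difference of 3.15 (standard error 0.97), or 8.89-fold. With EGFP mouse 3 left out the log2 difference was 1.98 (standard error 0.48), or 3.94-fold, and without EGFP mouse 2, the highest control, it was 4.18. Mbl2 was 1 of 2 member probes, with Reg3a, whose groups did not overlap and were higher with NeuroD-EGFP, which held for 5.6% of all tested probes, while 11.1% were separated in either direction. With EGFP mouse 3 left out the same 2 genes were separated, which leaving out a mouse cannot undo. In that comparison 15.9% of tested probes were separated in that direction. The size of the Mbl2 difference thus depended on which control mouse was kept. Its direction could not change with 1 mouse left out, since the groups did not overlap.

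**Figure D1:**
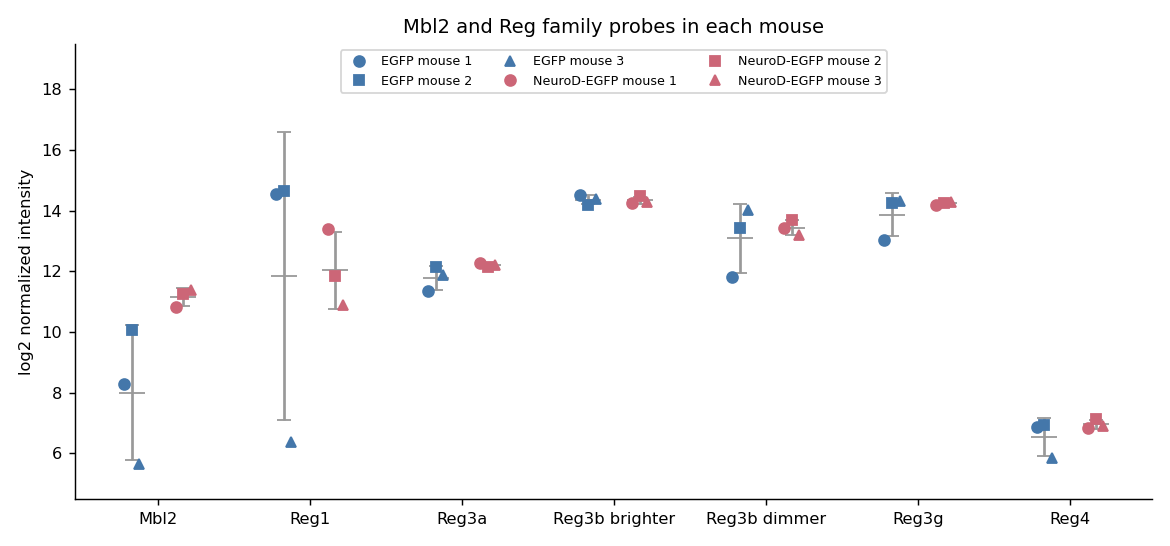
Log2 normalized intensity of the 7 probes of Mbl2 and the Reg genes in 3 EGFP mice (blue) and 3 NeuroD-EGFP mice (red), with symbols for mice 1 to 3 and grey bars for the group mean ± SD. EGFP mouse 3 (blue triangle) is the lowest mouse for Mbl2, Reg1 and Reg4, and EGFP mouse 1 (blue circle) the lowest for Reg3a, Reg3g and the dimmer Reg3b probe.

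Reg1 showed the widest spread of any tested probe on the array. Its signal was 25868 and 27583 in EGFP mice 1 and 2, near the top of the arrays' range (87.2% and 96.1% of the highest signal), and 71.5 in EGFP mouse 3, where it was still above background. The NeuroD-EGFP mice lay between these, at 10883, 3392 and 1569. As log2 values the EGFP mice had 14.55, 14.65 and 6.37, a measured span of 309-fold, and the NeuroD-EGFP mice 13.39, 11.86 and 10.88, a 5.69-fold span. The NeuroD-EGFP mice thus fell wholly inside the range of the controls. Whether signals as near the top as those of EGFP mice 1 and 2 were saturated was not tested, and folds that use them rest on the values as measured. The SD of 4.75 among EGFP mice ranked number 1 of 19099 tested probes, whose median SD was 0.26, and the SD of 1.26 among NeuroD-EGFP mice ranked number 25, against a median of 0.15. With all mice the log2 difference was 0.18 (standard error 2.12). Without EGFP mouse 3 it was -2.56 (standard error 0.64), with both remaining EGFP mice above all NeuroD-EGFP mice by 5.88-fold on average, and groups separated in this direction held for 15.2% of tested probes in that comparison. Without EGFP mouse 1 or 2 the log2 difference was 1.53 or 1.58. The 6 mice therefore give no single direction for Reg1.

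Genes of the proximal small intestine were, on average, lowest in the same mouse as Reg1 and Mbl2. Of 8 such genes listed, 6 could be tested, and their mean log2 level relative to the 6 mice was 1.14 and 0.92 in EGFP mice 1 and 2, -2.73 in EGFP mouse 3, and 0.53, 0.15 and -0.01 in NeuroD-EGFP mice 1 to 3. Their summed level ranged from 2570 to 19038 in the EGFP mice and from 12574 to 14679 in the NeuroD-EGFP mice. The 6 genes did not all follow this mean. Slc40a1 had a log2 value of 10.40 in EGFP mouse 3, below only EGFP mouse 1 (12.66) and above the NeuroD-EGFP mice (7.99 to 8.55). Tfrc was almost level, at 10.07 in EGFP mouse 3 and up to 10.43 in the others. Cybrd1, listed but above background in too few mice to be tested, was above it only in EGFP mice 1 and 3. Its signals there were low, at 53.6 and 23.4. The 3 distal genes that could be tested had a mean relative level of 0.99 in EGFP mouse 3 and between -0.33 and -0.03 in the others. Slc51a and Slc51b made up this rise, since Muc13 had a log2 value of 14.42 in EGFP mouse 3 and 14.47 in EGFP mouse 1. Slc10a2, the ileal bile acid transporter, was not above background in any mouse. The part of these regional genes in the differences of Mbl2 and Reg1 was not tested.

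**Figure D2:**
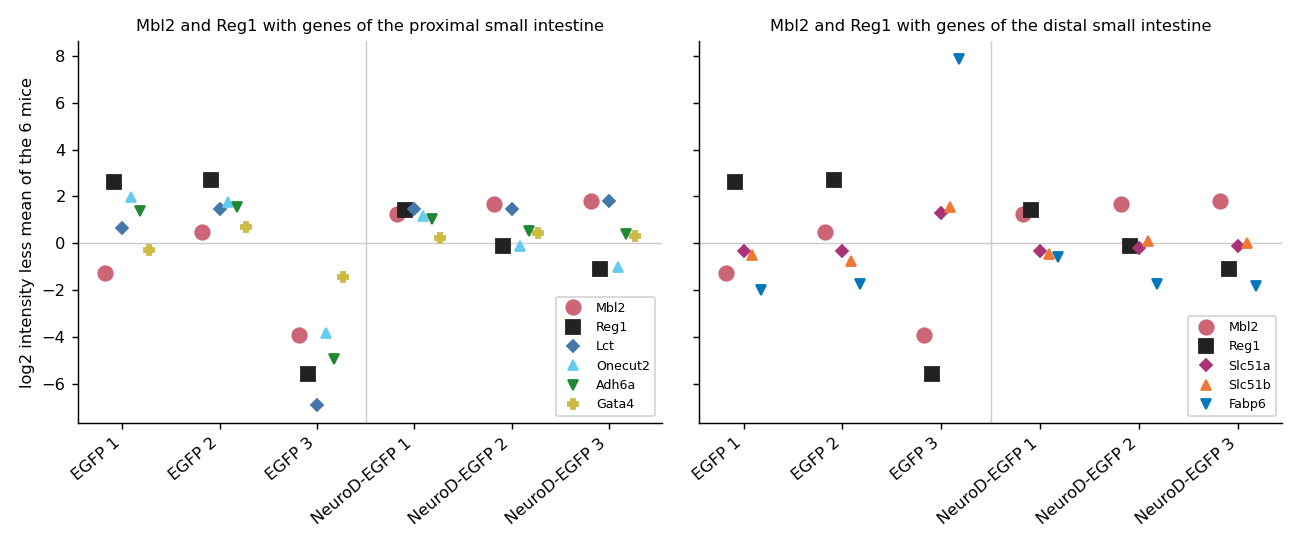
Log2 intensity less the mean of the 6 mice for Mbl2 and Reg1 (large symbols) beside genes of the proximal (left) and distal (right) small intestine (small symbols), by mouse. In EGFP mouse 3 Mbl2, Reg1, Lct, Onecut2, Adh6a and Gata4 are all at their lowest and Fabp6, Slc51a and Slc51b at their highest. The tested genes Slc40a1, Tfrc and Muc13, which did not move this way, are not shown. Fabp6 was above background in too few mice to be tested.

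The genes whose pattern over the 6 mice was nearest to that of a member were found by the root mean square difference of log2 values centred on the 6 mice, among 10771 other genes. For Reg1 these were Onecut2 (0.85), a transcription factor, Adh6a (0.99), an alcohol dehydrogenase family member, Slc46a1 (1.18), the intestinal folate transporter, and Cyp2b10 (1.27), a cytochrome P450. Slc46a1 stood at 12.39, 12.32 and 7.27 across EGFP mice 1 to 3 and at 10.91, 10.35 and 10.19 across NeuroD-EGFP mice 1 to 3, so the NeuroD-EGFP values again fell between those of the controls. Onecut2 was not above background in EGFP mouse 3 (5.23) but reached 11.04 and 10.84 in the other controls, with 10.23, 8.97 and 8.07 under NeuroD-EGFP. For Mbl2 the nearest genes were Dnase1 (0.43), a secreted nuclease, Apoc3 (0.86), an apolipoprotein, Asah2 (0.96), the neutral ceramidase that digests sphingolipids, and Slc5a4b (0.98), of the glucose transporter family. Dnase1 values were 10.12, 11.48 and 6.78 under EGFP against 11.52, 12.09 and 11.99 under NeuroD-EGFP. Unlike Reg1, these genes were as high in NeuroD-EGFP mice 2 and 3 as in NeuroD-EGFP mouse 1 or higher. The distance between Mbl2 and Reg1 themselves was 2.39. It cannot be set against those of the nearest genes, which were picked as the closest of 10771. The measure is also not scaled for how widely a gene varies.

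Reg3a, Reg3b and Reg3g were above background in every mouse, and for 3 of their 4 probes EGFP mouse 1 was the lowest. Reg3g, the antibacterial lectin of Gram-positive bacteria, gave signals of 9950, 20795 and 19429 under EGFP and of 19186, 19238 and 17037 under NeuroD-EGFP. Its log2 values were 13.04, 14.25 and 14.31 with EGFP and 14.20, 14.26 and 14.28 with NeuroD-EGFP. Only EGFP mouse 1 stood off, and EGFP mouse 3 was the highest of all 6. The log2 difference was 0.38 (standard error 0.33), which became -0.03 when EGFP mouse 1 was omitted and 0.60 when EGFP mouse 3 was. Among NeuroD-EGFP mice Reg3g had an SD of 0.04, at percentile 6.43 of all tested probes. These signals lay between 66.6% and 73.5% of the highest on their arrays, and how far differences are compressed so near the top was not tested. The nearest patterns were those of Espn (0.09), an actin-bundling protein of microvilli, Plec (0.09), the cytolinker plectin, Mfsd6l (0.09) and Efnb1 (0.10), the ligand ephrin-B1.
Reg3a had log2 values of 11.36, 12.13 and 11.90 with EGFP and 12.29, 12.15 and 12.21 with NeuroD-EGFP. The groups did not overlap, but EGFP mouse 2 (12.13) lay just under NeuroD-EGFP mouse 2 (12.15). Before normalization between arrays they did overlap, since the signal of 4881 in EGFP mouse 2 was above the 4864, 4133 and 3916 of NeuroD-EGFP mice 1 to 3, with 3172 and 3667 in the remaining controls. The log2 difference was 0.42 (standard error 0.21), or 1.34-fold, and fell to 0.20 when EGFP mouse 1 was omitted but was 0.47 when EGFP mouse 3 was. Its nearest patterns were those of Agap1 (0.03), an Arf GTPase-activating protein, Sppl3 (0.06), an intramembrane protease, Faap100 (0.06), of the Fanconi anaemia pathway, and Me2 (0.07), a mitochondrial malic enzyme. Among the members Reg3a and Reg3g were the closest pair, at a distance of 0.22.
Both probes of Reg3b were bright, and they disagreed in EGFP mouse 1. The brighter probe had log2 values of 14.52, 14.21 and 14.38 with EGFP and 14.25, 14.49 and 14.30 with NeuroD-EGFP, a log2 difference of -0.03 (standard error 0.15) that was -0.02 when EGFP mouse 3 was omitted. Its signal lay between 69.3% and 86.5% of the highest signal on each array. The dimmer probe had 11.83, 13.43 and 14.02 with EGFP and 13.45, 13.70 and 13.19 with NeuroD-EGFP, a log2 difference of 0.35 (standard error 0.51), which became -0.28 when EGFP mouse 1 was omitted and 0.82 when EGFP mouse 3 was. EGFP mouse 1 was thus the highest mouse with one probe and the lowest with the other. The ratio of the probes was 6.48 for EGFP mouse 1 and between 1.29 and 2.16 for the other 5 mice. The dimmer probe moved with Reg3g (distance 0.31), whereas the brighter one was 0.75 from the dimmer probe of its own gene. The patterns nearest to the brighter probe were those of Alg12 (0.03), a mannosyltransferase, Dnajb1 (0.04) and Ddx24 (0.05), a chaperone and an RNA helicase, and Crb1 (0.05), and those nearest to the dimmer probe were Scn2b (0.23), Gdpd5 (0.24), Cndp2 (0.26), a dipeptidase, and Gh (0.26). Reg3b and Reg3g have similar sequences, and how far each probe reads the other transcript was not tested.

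**Figure D3:**
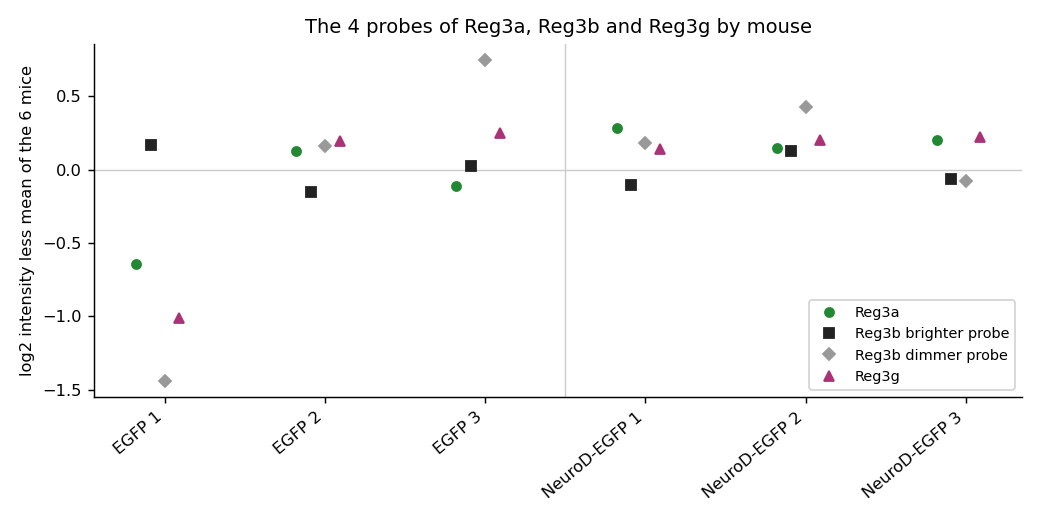
Log2 intensity less the mean of the 6 mice for the probes of Reg3a, Reg3b and Reg3g, by mouse. EGFP mouse 1 is lowest for Reg3a, Reg3g and the dimmer Reg3b probe but highest for the brighter Reg3b probe.

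Reg4 signals were low but above background in all 6 mice, at 129, 108 and 41.7 under EGFP and at 95.9, 114 and 85.7 under NeuroD-EGFP. Its log2 values were 6.88, 6.94 and 5.83 with EGFP and 6.85, 7.12 and 6.90 with NeuroD-EGFP, so 5 mice lay close together and EGFP mouse 3 was below them. The log2 difference of 0.40 (standard error 0.30) was 0.04 without that mouse. Its nearest patterns were those of Slc12a7 (0.04), a potassium-chloride cotransporter, and Arsg (0.05), a lysosomal sulfatase, with Nek6 (0.07) and Aldh18a1 (0.08) next, all lowest in EGFP mouse 3. The relatives Mbl1, the second mannose-binding lectin gene, Reg2 and Reg3d were not well above background on any array, and no fold is given for them.

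**Figure D4:**
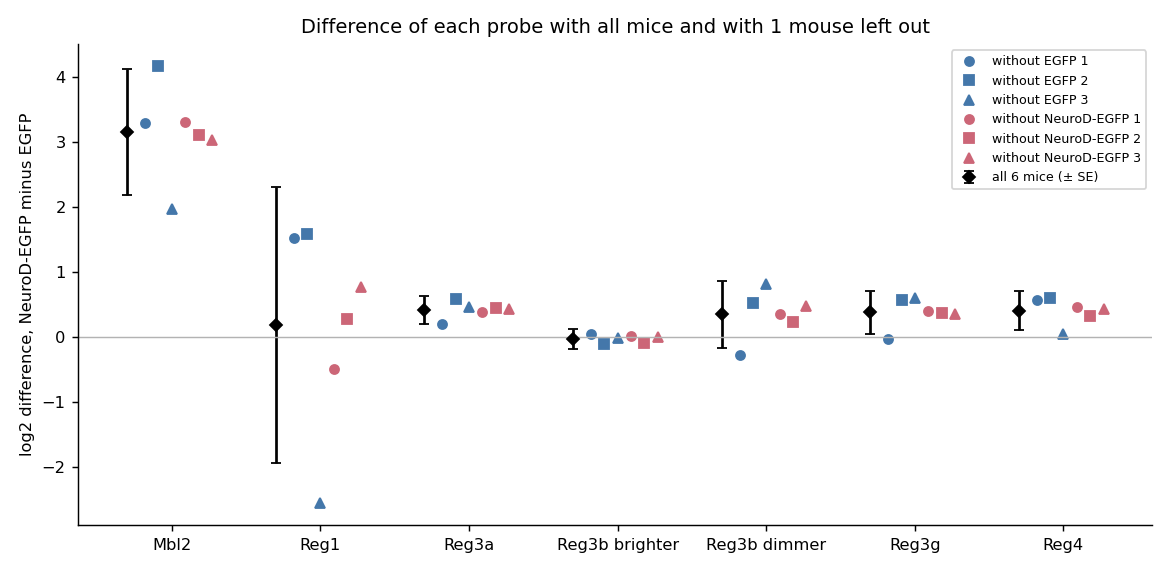
Log2 difference, NeuroD-EGFP minus EGFP, of each member probe with all 6 mice (black, ± standard error) and with 1 mouse left out (blue, an EGFP mouse; red, a NeuroD-EGFP mouse). The Reg1 value runs from -2.56 (EGFP mouse 3 omitted) to 1.58 (EGFP mouse 2 omitted), and the Mbl2 value from 1.98 to 4.18.

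The control mice differed among themselves more than the NeuroD-EGFP mice for all 7 member probes. The SDs of the EGFP mice were 2.21 for Mbl2, 4.75 for Reg1, 0.39 for Reg3a, 0.16 and 1.13 for the brighter and dimmer Reg3b probes, 0.72 for Reg3g and 0.62 for Reg4. Mbl2 ranked number 70 of 19099 in this spread. The NeuroD-EGFP mice had SDs of 0.29, 1.26, 0.07, 0.13, 0.25, 0.04 and 0.14 in the same order. Across all tested probes the median SD was also larger with EGFP, at 0.26 against 0.15, so a wider spread among the controls was not particular to the members.

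Markers of other cells that make these proteins were read beside them. RNA of bulk tissue cannot tell fewer cells of a type from less RNA per cell. Hepatocytes also transcribe Mbl2. Of 21 hepatocyte markers on the array 12 could be tested, of which 3 had a positive and 9 a negative difference, and 8, among them the fibrinogen genes Fga, Fgb and Fgg, were not above background in any mouse. Albumin (Alb) was above background in 1 mouse. By limma 0 of the 12 passed an adjusted p of 0.05. At a limma unadjusted p under 0.05 Hp and Itih3 were higher and Ahsg was lower. Across all 10777 tested genes 4.76% had an unadjusted p under 0.05, and 2.2% were higher at that threshold. Hp, the acute phase protein haptoglobin, had log2 values of 4.80, 4.88 and 7.01 under EGFP, of which the first pair was not above background, and of 8.05, 7.06 and 8.70 under NeuroD-EGFP. Its groups were separated in the same direction as those of Mbl2, with a difference of 2.37 (standard error 0.66, limma adjusted p = 0.92). Itih3, a hyaluronan-binding plasma protein, had a difference of 0.59 (standard error 0.24), and Ahsg, the plasma protein fetuin-A, of -0.53 (standard error 0.19). The summed level of the 12 markers was 3662 to 5659 with EGFP and 3344 to 3754 with NeuroD-EGFP, and its brightest gene in every mouse was Cps1, a urea cycle enzyme that small intestinal epithelium also expresses, at log2 values of 10.87 to 12.13. Of 24 pancreatic acinar markers on the array 8 could be tested, with 5 positive and 3 negative differences, and 14, including the digestive enzyme genes Cpa1, Cpb1 and Ctrb1, were not above background in any mouse. By limma 0 of the 8 passed, and 1, the colipase gene Clps, was higher at an unadjusted p under 0.05, with 11.11, 11.17 and 11.78 under EGFP and 12.18, 11.81 and 12.10 under NeuroD-EGFP. The lipase gene Pnliprp2 stood at 9.29, 9.53 and 10.97 under EGFP and at 10.93, 10.78 and 10.91 under NeuroD-EGFP. The amylase gene Amy2a5 stood at 6.25, 8.68 and 5.97 under EGFP and at 5.69, 5.22 and 6.11 under NeuroD-EGFP. Clps, Pnliprp2 and Amy2a5 thus did not share 1 order of mice. The summed level of the 8 markers was 23432 to 27943 with EGFP and 26833 to 29548 with NeuroD-EGFP, most of it from Zg16, which goblet cells also express, at log2 values of 14.28 to 14.48 over the 6 mice. Enterocyte markers (19 of 22 tested, none of those on the array at background in every mouse) had a mean relative level of -0.95 in EGFP mouse 3 and of 0.01 to 0.30 in the other mice. Their summed level was 141239 to 214449 with EGFP and 193522 to 213974 with NeuroD-EGFP. The mean of the enterocyte set was thus lowest in the mouse in which Mbl2, Reg1 and Reg4 were lowest. Its genes did not move together. In EGFP mouse 3 Apoa4 (11.17), Rbp2 (10.96) and Lct, which is also in the proximal list, were far below the other mice. Dpp4 (13.55), Enpep (11.11) and Anpep (14.50) were instead at their highest there. Of 19 Paneth cell markers 13 could be tested, and none of those was at background in every mouse. Their mean relative level was -0.67 and -0.58 in EGFP mice 1 and 2. It was 0.54 in EGFP mouse 3 and 0.17 to 0.32 with NeuroD-EGFP. Goblet cell markers (13 of 15 tested, with Atoh1 at background) ran from -0.55 in EGFP mouse 1 to 0.61 in EGFP mouse 3, and from -0.09 to 0.18 with NeuroD-EGFP. The means of the Paneth and goblet sets were thus highest in EGFP mouse 3. Not all of their genes followed. The Paneth marker Mptx1 (5.10, not above background) and the goblet marker Fcgbp (7.33) were at their lowest there. Defa26, a Paneth marker, had 14.16 there, below the NeuroD-EGFP mice (14.39 to 14.64). The part of any of these sets in the members' values was not tested.

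Genes around the members were described from 3 lists. In the lectin pathway and the rest of complement, 24 of 45 listed genes could be tested, of which 13 had a positive and 11 a negative difference, with a median of 0.01 against 0.0047 for all 10777 tested genes. By limma 0 passed an adjusted p of 0.05, as was the case for all tested genes (0%). At an unadjusted p under 0.05, 1 was higher and 0 were lower, where 2.2% of all tested genes were higher and 4.76% passed in either direction. A positive difference was found for 50.8% of all tested genes. That gene was Cfb, complement factor B of the alternative pathway, at 10.10 ± 0.19 (SD, 3 mice) under EGFP and 10.64 ± 0.15 (SD, 3 mice) under NeuroD-EGFP, for a log2 difference of 0.54 (standard error 0.16, limma adjusted p = 0.92). With EGFP mouse 3 left out 3 complement genes were higher and 1 lower at an unadjusted p under 0.05, where 7.26% and 6.71% of all tested genes were, 0 passed the adjusted p by limma, and the median was 0.09. Itgb2, the beta chain of complement receptors on leukocytes, had 0.29 (standard error 0.21) and C2, a component shared by the classical and lectin pathways, -0.42 (standard error 0.37). The protease gene Masp1 was above background on too few arrays to be tested. The protease gene Masp2, above background on 3 arrays, had -0.24 (standard error 0.25).
Of 26 other secreted lectins and antimicrobial proteins of the gut, 16 could be tested, with 10 positive and 6 negative differences and a median of 0.05. By limma 0 passed and 0 had an unadjusted p under 0.05. With EGFP mouse 3 left out 5 were higher and 1 lower before adjustment, 0 passed after it, and the median was 0.14. In that comparison 7.26% of all tested genes were higher and 6.71% lower at an unadjusted p under 0.05 by limma. Lgals3, the galactose-binding galectin-3, had -0.32 (standard error 0.14), Itln1, the lectin intelectin-1 of Paneth and goblet cells, 0.46 (standard error 0.23), and Lypd8, an antibacterial protein, -0.42 (standard error 0.23), each at a limma adjusted p of 0.92.
Of 49 genes of IL-22, IL-6, IL-17 and STAT3 signalling, which act upstream of Reg3 genes, 28 could be tested, with 18 positive and 10 negative differences and a median of 0.09. Again 0 passed by limma and 0 had an unadjusted p under 0.05. With EGFP mouse 3 left out 3 were higher and 1 lower before adjustment, 0 passed after it, and the median was 0.12. The shares of all tested genes there were again 7.26% higher and 6.71% lower. Il22, Il22ra1 and Il6 were not above background on any array. Il33, an epithelial alarmin cytokine, had 0.56 (standard error 0.24), Pim1, a kinase induced by STAT3, 0.45 (standard error 0.20), and Osmr, the oncostatin M receptor, -0.30 (standard error 0.17). Stat3 itself had 0.05 (standard error 0.14) and Extl3, reported as a receptor for Reg proteins, 0.15 (standard error 0.18), both named for their role and not by their p.

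**Figure D5:**
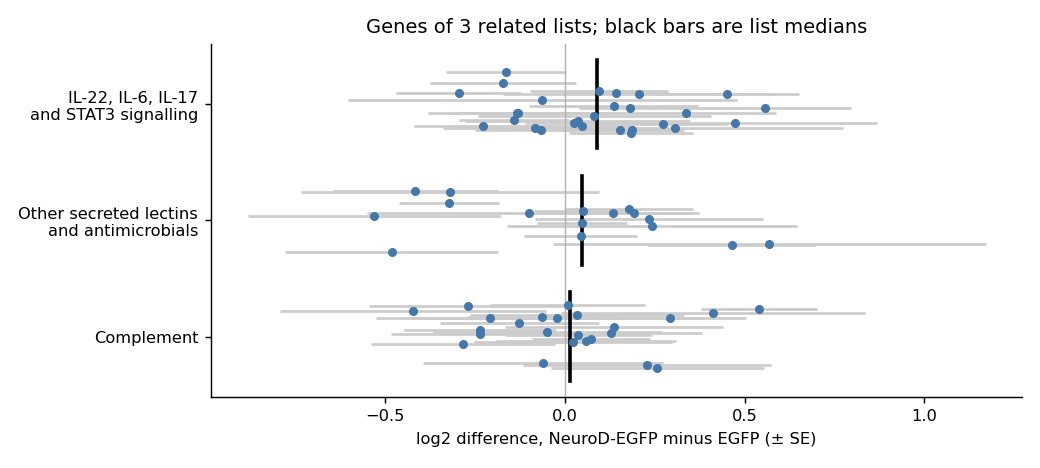
Log2 difference, NeuroD-EGFP minus EGFP, of each tested gene (points, ± standard error) in the complement, secreted lectin and cytokine signalling lists, with black bars at the list medians. The medians of 0.01, 0.05 and 0.09 lie close to 0 and the genes spread to both sides.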

How the data were processed

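Signals were taken from the table of intensities that the authors deposited, in which each array has background-subtracted values that are not scaled between arrays, and from the detection p-values that the authors deposited with them. The deposited log2 values of the authors are log2 of the same intensities, with 4 in place of signals at or below 0, and served as an alternative. The scanner software is not given in the sources used here. Here intensities were background-corrected, quantile-normalized and logged by limma's neqc (limma 3.58.1, R 4.3.3, offset 16). A probe was tested when it was above background (detection p-value under 0.05) in 3 mice or more, which left 19099 probes for lmFit and eBayes (p-values adjusted by Benjamini-Hochberg across these probes). Symbols of the platform annotation were updated through RefSeq gene numbers. 34885 probes had 1 symbol, 18 had several and 10378 were not listed. A listed gene was read by its brightest tested probe. The members and lists were chosen with earlier results of these data known. The text names the members, the relatives Mbl1, Reg2 and Reg3d and the 3 genes of lowest p of each pathway list. By the same rule it names the 4 nearest patterns of each member. Stat3, Extl3, Masp1, Masp2 and the cell type and regional markers were named beside that rule, some after their values were seen. The fit was tested on simulated data. A two-sided exact permutation test of 3 mice against 3 reaches p = 0.1 at best, and the number of arrays limits the precision. Alternatives changed the background correction, offset, scaling, detection filter, prior, array weights, replicate block, test (the methods' t-test), probe summary, motif window and the mice included. A beadchip block was not run, since none is named.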

Additional observations from a re-analysis of the deposited data

How the results depend on the processing

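The differences of Mbl2, Reg3a and Reg4 stayed positive in all 15 alternatives each, from 1.98 to 4.18, 0.16 to 0.59 and 0.04 to 0.60 on the log2 scale. Not all alternatives could have changed them. With 1 probe per gene, the detection filters, the replicate block and the mean of probes returned the same differences by construction. Leaving out a mouse could not reverse Mbl2 or Reg3a, whose groups did not overlap. The sign changed in 3 of 15 for Reg1, in 4 of 15 for Reg3b, whose difference was near 0, and in 1 for Reg3g, without EGFP mouse 1 (-0.03). Leaving out 1 mouse gave -2.56 to 1.58 for Reg1, -0.11 to 0.05 for Reg3b, -0.03 to 0.60 for Reg3g, and 0 to 24 probes past an adjusted p of 0.05, the 24 (21 higher, 3 lower) without EGFP mouse 3. With array weights Reg1 had -1.39. The Reg3b difference, -0.03 with its brighter probe, was 0.12 after scaling to the 75th percentile and 0.16 as the mean of its probes, the latter by construction. The authors' values, in which the median probe fell by 0.27, moved the medians of the complement, lectin and cytokine signalling lists to -0.26, -0.11 and -0.21. These medians also crossed 0 when single mice were omitted, complement to -0.19 without EGFP mouse 2. None of the lists' genes passed an adjusted p of 0.05 in any alternative. The methods' t-test called 616 genes before and 0 after adjustment. Same-numbered mice of the groups did not deviate together throughout (r = 0.30, -0.09 and 0.16 over probes), so the numbers were not taken as pairs, and with a replicate block 0 probes passed. In the 300 bases of the promoter table Mbl2 had 3 E-box matches.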

Other observations

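Gip, the incretin hormone gene of the upper small intestine, read 8.56, 8.67 and 5.45 on the log2 scale under EGFP and 8.62, 8.36 and 8.41 under NeuroD-EGFP. Nts, the neurotensin gene of the lower small intestine, stood at 5.11, 6.66 and 9.66 under EGFP and at 8.07, 8.78 and 8.92 under NeuroD-EGFP. EGFP mouse 3 was thus the lowest mouse for Gip, whereas for Nts it was the highest and lay nearer to the NeuroD-EGFP mice than to EGFP mice 1 and 2. Both genes were chosen after their values were seen. Of 19099 tested probes, 216 lay at least 4-fold from the mean of the other 5 mice in EGFP mouse 3, 122 in EGFP mouse 1 and between 4 and 28 in each of the other 4 mice.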
